A study of Homo sapiens with 84 samples.

Results

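The genes described here are 9 human tubulins, the alpha-tubulins TUBA1A, TUBA1B, TUBA1C and TUBA4A and the beta-tubulins TUBB, TUBB2A, TUBB3, TUBB4B and TUBB6. They were taken by name from the 57964 genes of the count table, because alpha-tubulin protein is a reported substrate of PARP7, and were followed over all 28 groups of the study. The study exposed NCI-H1373 and NCI-H647, both established non-small cell lung cancer lines, to inhibitors of PARP7 and measured RNA by 3′ digital gene expression, which reads a short stretch near the 3′ end of each transcript. In each line, cells received RBN-2397 at 10, 30 or 300 nM, RBN012337 at 3, 10 or 100 nM, or the vehicle DMSO, for 6 or 24 h, with 3 libraries in each group from triplicate experiments. The sample labels also spell RBN-2397 as RBN012397. Each line has its own DMSO group at each time. A library reads a whole culture, so fewer cells that express a gene and less of its RNA per cell cannot be told apart.

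Tubulins are the building blocks of microtubules: 1 alpha and 1 beta chain form a dimer, and dimers join end to end into the filaments that carry cargo, shape the cell and form the mitotic spindle. Cells watch the amount of free dimer and degrade tubulin mRNAs while they are being translated when it is high, a feedback known as tubulin autoregulation in which TTC5 recognises the first residues of the new chain. PARP7, encoded by TIPARP, attaches single ADP-ribose units to proteins, and RNA counts do not show that modification.

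The coding starts are shown because the first codons carry the signal that autoregulation reads, and because they show how alike the genes are. The 9 coding sequences were taken from 1 GENCODE 29 transcript a gene, on GRCh38. In the 30 bases from each start codon, the first 12 bases are in capitals. TUBA1A, TUBA1B and TUBA1C have the same 30 bases.
TUBA1B: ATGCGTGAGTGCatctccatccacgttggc
TUBA4A: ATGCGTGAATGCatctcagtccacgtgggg
TUBB: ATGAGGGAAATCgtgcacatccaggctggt
TUBB2A: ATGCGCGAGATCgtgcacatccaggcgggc
TUBB3: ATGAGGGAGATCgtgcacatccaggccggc
TUBB4B: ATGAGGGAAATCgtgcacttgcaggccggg
TUBB6: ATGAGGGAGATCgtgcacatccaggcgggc

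The coding ends of the beta genes are shown because they encode the acidic tails by which tubulin isotypes differ. They lie 154 bases before the transcript end in TUBB4B, 197 in TUBB2A and 296 in TUBB3. In TUBB6 the distance is 492 bases and in TUBB 1032 bases, so the TUBB stretch shown is not near the 3′ end that was read. The last 60 coding bases before the stop codon are given in the direction of transcription, with the last codon in capitals.
TUBB, 6:30724335-30724394, plus strand: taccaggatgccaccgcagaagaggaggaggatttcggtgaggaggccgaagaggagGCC
TUBB2A, 6:3153866-3153925, minus strand: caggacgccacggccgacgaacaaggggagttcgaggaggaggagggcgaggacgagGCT
TUBB3, 16:89935742-89935801, plus strand: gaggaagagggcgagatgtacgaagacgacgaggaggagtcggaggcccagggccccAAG
TUBB4B, 9:137243494-137243553, plus strand: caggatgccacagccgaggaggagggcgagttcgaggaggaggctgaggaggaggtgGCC
TUBB6, 18:12326068-12326127, plus strand: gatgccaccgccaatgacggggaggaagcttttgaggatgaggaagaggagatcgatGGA

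The coding sequences ran from 1332 bases in TUBB to 1353 bases in TUBA1A and TUBA1B. Identity between aligned coding sequences was 84.4 to 97.2% among the 4 alpha genes, 80.9 to 87.8% among the 5 beta genes, and 52.2 to 54.3% between alpha and beta genes. Because the reads come from the 3′ end, the last 500 bases of each transcript matter most for telling copies apart. Of the 31-base words in that stretch, none of TUBA1C, TUBA4A or TUBB6 and 1.49% of TUBB occurred in a transcript of another alpha- or beta-tubulin gene or pseudogene. The share was 25.3% in TUBB3, 31.5% in TUBB4B, 38.3% in TUBA1A, 57% in TUBA1B and 57.9% in TUBB2A. Reads from these 5 genes can have been divided among copies. The share describes sequence and does not measure how many counts were misplaced, which was not tested. A low gene beside a high one is more exposed, as TUBA1A at 21.2 CPM beside TUBA1B at 1324 CPM in NCI-H1373.

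TUBA1A, TUBA1B and TUBA1C lie together on chromosome 12. TUBA1A (ENSG00000167552.13, 49184796 to 49189324, minus strand) overlaps the start of TUBA1C (ENSG00000167553.15, 49188736 to 49274603, plus strand), and TUBA1B (ENSG00000123416.15) lies at 49127782 to 49131397 on the minus strand. TUBA4A (ENSG00000127824.13) lies on chromosome 2 at 219249711 to 219278170 and overlaps STK16 on the opposite strand. TUBB (ENSG00000196230.12) and TUBB2A (ENSG00000137267.5) are on chromosome 6, at 30720201 to 30725426 on the plus strand and at 3153669 to 3157526 on the minus strand. TUBB3 (ENSG00000258947.6) lies on chromosome 16 at 89921392 to 89938761, TUBB4B (ENSG00000188229.5) on chromosome 9 at 137241213 to 137243707, and TUBB6 (ENSG00000176014.12) on chromosome 18 at 12307669 to 12344320. TUBB6 overlaps AFG3L2 on the opposite strand. The overlap of TUBA1A and TUBA1C, at 49188736 to 49189324, holds the annotated 5′ ends of both genes, away from the 3′ ends that were read. The sources used here do not say whether the counting used strand, so reads of the other overlapping pairs may not have been told apart.

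Total counts ran from 630654 to 5994186 in the 42 NCI-H1373 libraries and from 1769114 to 6938453 in the 42 NCI-H647 libraries. In NCI-H1373, 21 libraries were shallow, at 2011404 counts or fewer, and the other libraries of that line held at least 2481690. The shallow libraries were replicate 3 of all 7 groups at 6 h and replicates 2 and 3 of all 7 groups at 24 h. Some NCI-H647 libraries were as shallow. They were DMSO replicate 2 (1800160) and RBN012337 10 nM replicate 2 (1769114) at 6 h, and DMSO replicate 3 (1884355) at 24 h. The name shallow is used below for NCI-H1373 only, and these NCI-H647 libraries stayed in the fits without the shallow libraries. The leading components of expression over other genes went in part with the replicate number, as given in the last section. Some libraries also stood apart on them. In NCI-H1373 at 6 h, some treated libraries lay beside replicates 1 and 2 of DMSO. They were replicates 1 and 2 of RBN012337 100 nM and replicate 2 of RBN-2397 30 nM. Over all genes, these treatments had 0 and 3 calls, against 25 to 206 in the other treatments at 6 h. In NCI-H1373 at 24 h, DMSO replicate 3, the shallowest library at 630654 counts, lay away from all others on the second component. There too, replicates 1 and 2 of RBN012337 100 nM lay beside replicates 1 and 2 of DMSO. In NCI-H647, DMSO replicate 2 and RBN-2397 300 nM replicate 2 at 6 h, and DMSO replicates 2 and 3 and RBN012337 100 nM replicate 2 at 24 h, lay apart from the rest. The calls of tubulins in NCI-H1373 at 24 h are given below with and without the shallow libraries and each DMSO library. Keratins were read in both lines, while EPCAM, an epithelial surface protein, averaged 370 CPM in NCI-H1373 and 3.14 CPM in NCI-H647, and the leukocyte gene CD3E was at 0 in every library. TIPARP, the gene of the inhibited enzyme, rose in NCI-H1373, with a log2 fold change of the 6 treatments over DMSO of 1.18 ± 0.27 (SE, edgeR quasi-likelihood test, Benjamini-Hochberg adjusted p = 0.0244) at 6 h and 1.05 ± 0.28 (adjusted p = 0.0118) at 24 h. In NCI-H647 it was 0.29 (adjusted p = 0.933) and 0.27 (adjusted p = 0.843). The RBN012337 100 nM libraries of NCI-H1373 lay above every DMSO library in TIPARP, at 86.0 to 94.3 CPM against 21.6 to 55.2 CPM at 6 h. At 24 h they had 74.2 to 100 CPM against 30.2 to 43.5 CPM in DMSO. Neither difference was called in that treatment alone.

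Levels are given in CPM, the count scaled by its library's total count. Over its 42 libraries, NCI-H1373 held a mean of 3569 CPM of the 9 tubulins, of which the 4 alpha genes made up 62.4%. NCI-H647 held 3517 CPM, with 62.8% from the alpha genes. TUBA1B led in both lines, with 1324 CPM in NCI-H1373 (657 to 1977) and 1369 CPM in NCI-H647 (704 to 1909). TUBB, the widely expressed beta chain, averaged 604 CPM in NCI-H1373 (288 to 806) and 702 CPM in NCI-H647 (308 to 966). The library ranges of TUBA1B and TUBB overlapped between the lines.

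Divided by exon length, the levels ran in NCI-H1373 from TUBA1B at 371 CPM per kilobase through TUBB4B at 281, TUBB at 180, TUBA1C at 140 and TUBA4A at 57.6 to TUBB6 at 16.5, TUBB3 at 12.4, TUBB2A at 11.8 and TUBA1A at 6.20. In NCI-H647 the order was TUBA1B at 383 CPM per kilobase, TUBB at 209, TUBB4B at 201, TUBA1C at 122, TUBA4A at 42.7, TUBA1A at 29.6, TUBB6 at 22.6, TUBB2A at 18.9 and TUBB3 at 12.3. A 3′ method counts each transcript about once whatever its length. The values per kilobase are therefore not a fair ranking of levels between genes, and the order in plain CPM differed. By CPM, the order in NCI-H1373 was TUBA1B, TUBA1C, TUBB at 604, TUBB4B at 594, TUBA4A, TUBB6, TUBB3, TUBA1A and TUBB2A. The CPM order in NCI-H647 was TUBA1B, TUBB, TUBA1C at 567, TUBB4B at 425, TUBA4A, TUBA1A, TUBB6, TUBB3 and TUBB2A. Neighbours whose library ranges overlapped, such as TUBB4B and TUBB in either line or TUBB3 and TUBB2A in either line, are not separated by these orders. The 49 other genes named as TUBA or TUBB, most of them pseudogenes, held 0.196% of tubulin counts.

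**Figure D1:**
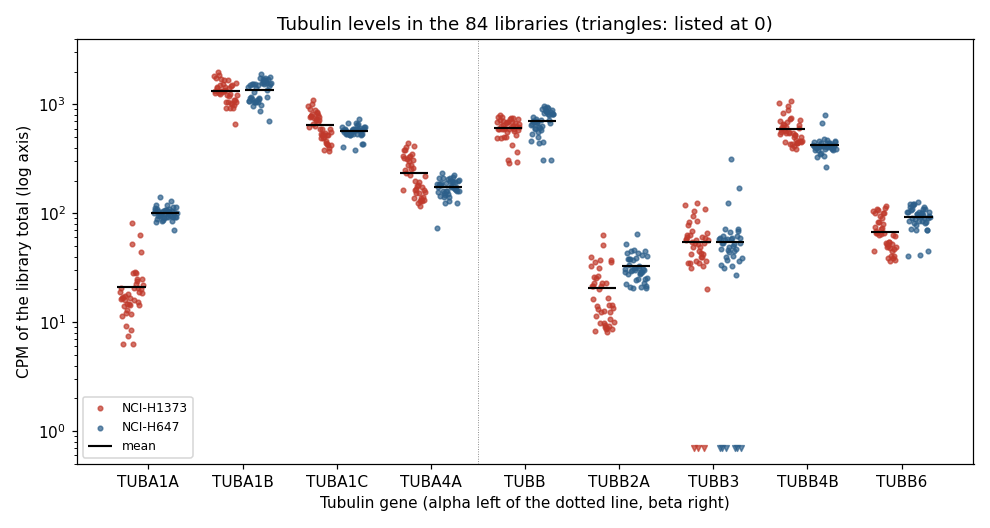
CPM of each tubulin (log axis) in every library, 42 of NCI-H1373 in red and 42 of NCI-H647 in blue; bars are means and triangles mark libraries listed at 0. TUBA1B was highest in both lines, with means of 1324 and 1369 CPM, TUBA1A had means of 21.2 CPM in NCI-H1373 and 101 CPM in NCI-H647, and TUBB3 alone was listed at 0 in some libraries.

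The lines were set against each other in DMSO. Of the 18 tests over both times, 4 were higher and 2 lower in NCI-H1373, beside 31.2% of all tests called in the same comparison. TUBA1A, the alpha chain best known from neurons, was lower in NCI-H1373. At 6 h TUBA1A had 19.0, 20.6 and 16.2 CPM in NCI-H1373 DMSO libraries, against 101, 111 and 107 CPM in NCI-H647 DMSO libraries. The 3 libraries of each line lay close together and far from those of the other, with a log2 difference of -2.39 ± 0.33 (SE, adjusted p = 1.34e-08). Since 38.3% of the 3′ words of TUBA1A occur in other tubulin genes, part of this difference may belong to a copy.

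At 24 h TUBA1A had 81.2, 52.4 and 6.34 CPM in NCI-H1373 DMSO libraries and 108, 93.4 and 102 CPM in NCI-H647 DMSO libraries. Replicate 3 of NCI-H1373 was far below the other libraries. It held 4 counts of TUBA1A among 630654 in all, so its level is near the floor. The groups did not overlap. The log2 difference was -1.04 ± 0.31 (adjusted p = 0.00761), and without that library it was -0.68 (adjusted p = 0.0865). Without all shallow libraries it was -0.33 (adjusted p = 0.558).

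TUBA4A was higher in NCI-H1373 at 6 h, with 335, 164 and 321 CPM in NCI-H1373 and 187, 72.8 and 158 CPM in NCI-H647. The groups overlapped only through replicate 2 of NCI-H1373, and the log2 difference was 1.10 ± 0.23 (adjusted p = 9.19e-05). TUBA1C was higher at 6 h too, with 969, 627 and 769 CPM in NCI-H1373 and 624, 408 and 581 CPM in NCI-H647, a log2 difference of 0.67 ± 0.20 (adjusted p = 0.00472). Without replicate 1 of the NCI-H1373 DMSO group it was 0.52 (adjusted p = 0.0645).

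TUBB4B, a beta chain found in most tissues and in cilia, was higher in NCI-H1373 at both times. At 6 h it had 1023, 532 and 703 CPM in NCI-H1373, against 428, 412 and 451 CPM in NCI-H647. All 3 NCI-H1373 libraries were above the NCI-H647 libraries, and the log2 difference was 0.89 ± 0.23 (adjusted p = 0.00123). At 24 h it had 744, 1073 and 431 CPM in NCI-H1373 and 389, 806 and 267 CPM in NCI-H647. Both groups were spread widely and overlapped, and the log2 difference was 0.65 ± 0.23 (adjusted p = 0.0238). That call was lost without replicate 1 (0.58, adjusted p = 0.0893) or 2 (0.38, adjusted p = 0.291) of NCI-H1373 DMSO, and without replicate 1 (0.54, adjusted p = 0.116) or 3 (0.39, adjusted p = 0.249) of NCI-H647 DMSO. TUBB, TUBB2A, TUBB3 and TUBB6 were not called between lines at either time. Summed over the 5 beta genes, the 6 h difference was 0.52 ± 0.18 (adjusted p = 0.0179), and summed over the 4 alpha genes it was 0.49 ± 0.23 (adjusted p = 0.091).

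The 24 h and 6 h DMSO groups of each line were compared next. In NCI-H1373, 2 of 9 tubulins were lower at 24 h than at 6 h and none was higher, beside 9.12% of all genes called. TUBA1C had 595, 540 and 493 CPM at 24 h and 969, 627 and 769 CPM at 6 h. Every 24 h library was below every 6 h library, and the log2 difference was -0.79 ± 0.21 (adjusted p = 0.0143). TUBA4A had 137, 164 and 198 CPM at 24 h and 335, 164 and 321 CPM at 6 h. The groups overlapped through replicate 2 of the 6 h group, and the log2 difference was -0.93 ± 0.24 (adjusted p = 0.0146). The 4 alpha genes summed were lower too, with a log2 difference of -0.73 ± 0.22 (adjusted p = 0.0341).

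Both single-gene calls were lost when DMSO replicate 1 or 2 at 24 h, or DMSO replicate 1 at 6 h, was left out. TUBA1C was then -0.82 (adjusted p = 0.0519), -0.68 (adjusted p = 0.0838) and -0.64 (adjusted p = 0.0923), and TUBA4A was -0.76 (adjusted p = 0.126), -0.81 (adjusted p = 0.0869) and -0.77 (adjusted p = 0.0875). Without the shallow libraries TUBA1C was -0.79 (adjusted p = 0.0923) and TUBA4A -1.22 (adjusted p = 0.122), and 3 of the other tubulins were called. With all libraries, TUBA1B was -0.71 ± 0.26 (adjusted p = 0.0814), TUBB -0.76 ± 0.27 (adjusted p = 0.0663) and TUBA1A 1.10 ± 0.39 (adjusted p = 0.0671), and none of the 3 passed the test. In NCI-H647 none of the 9 was called between DMSO times, beside 0.284% of all genes, and none had an unadjusted p under 0.05.

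The main question of the design is what inhibitor treatment did relative to DMSO. Each of the 6 treatments was tested against DMSO in each line and at each time, which gave 54 tests on tubulins per line and time. In NCI-H1373 at 24 h, 8 of 54 tests were called, all lower in treated cells and all of beta-tubulins, beside 5.46% of all such tests. The count was 0 without DMSO replicate 1, 1 without DMSO replicate 2, 24 without DMSO replicate 3 and 5 without the shallow libraries, and it was 13 with DESeq2 and 14 without the filter on low counts. With a replicate block, given in the last section, the count was 20. In the other 3 sets none of 54 was called. At 6 h in NCI-H1373, 6 of 54 had an unadjusted p under 0.05 and the smallest adjusted p was 0.13, with 0.434% of all tests called. In NCI-H647, 1 of 54 at 6 h and 6 of 54 at 24 h had an unadjusted p under 0.05, with 0.00225% and 1.18% of all tests called and smallest adjusted p of 0.225 and 0.157. These counts are from edgeR, and DESeq2 also called none of the 54 in each of these sets.

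**Figure D2:**
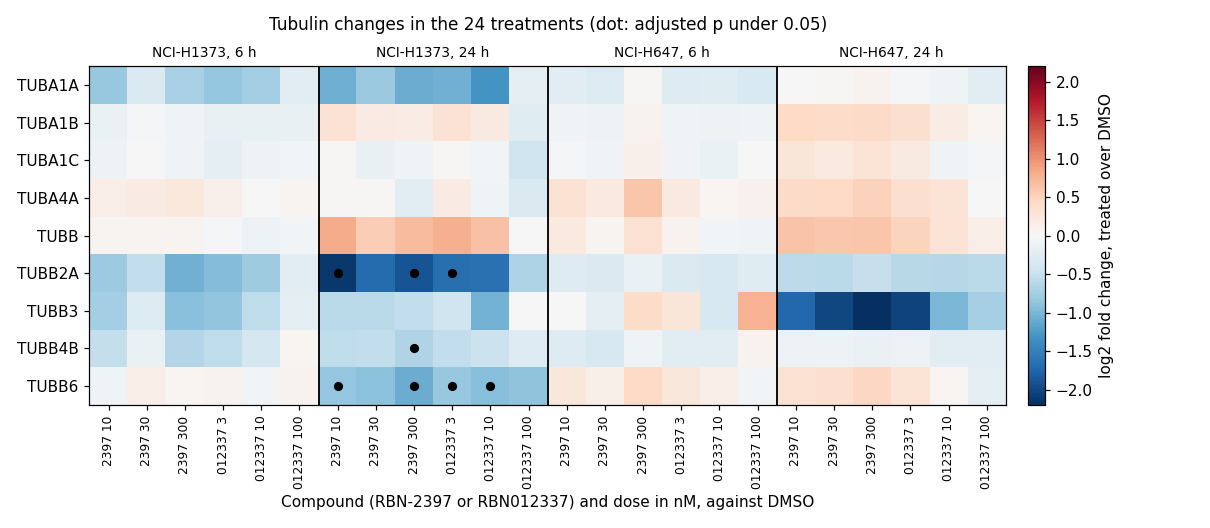
Log2 fold change of each tubulin in each treatment over DMSO (colour), with doses in nM rising to the right within each compound; a dot marks an adjusted p under 0.05. The 8 dots all lie in NCI-H1373 at 24 h, on TUBB2A, TUBB4B and TUBB6, and TUBB was positive in all 6 treatments of NCI-H1373 at 24 h without passing the test.

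TUBB6, a beta chain of many non-neuronal cells, was called in 4 of the 6 treatments of NCI-H1373 at 24 h, and TUBB2A, a beta chain abundant in brain, in 3. Their DMSO libraries were not alike, which bears on every value below. TUBB6 had 47.7, 36.4 and 40.6 CPM at RBN-2397 300 nM, against 112, 117 and 53.9 CPM in DMSO. The groups did not overlap, although DMSO replicate 3 was near the treated libraries. The log2 fold change was -1.08 ± 0.27 (edgeR, adjusted p = 0.00695), beside 11.9% of all genes called in that treatment.

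TUBB6 had 49.2, 52.6 and 49.6 CPM at RBN-2397 10 nM, a log2 fold change of -0.85 ± 0.26 (adjusted p = 0.043) beside 7.33% of all genes. It had 61.6, 37.5 and 49.5 CPM at RBN012337 3 nM, a log2 fold change of -0.83 ± 0.26 (adjusted p = 0.0428) beside 8.5% of all genes. It had 52.3, 45.3 and 38.9 CPM at RBN012337 10 nM, a log2 fold change of -0.93 ± 0.27 (adjusted p = 0.0484) beside 2.68% of all genes. Of these 3 groups, RBN012337 3 nM overlapped DMSO through its replicate 1 and the others did not overlap it. At RBN-2397 30 nM TUBB6 was -0.91 ± 0.27 (adjusted p = 0.056) and at RBN012337 100 nM -0.89 ± 0.26 (adjusted p = 0.226). No tubulin was called in these 2 treatments, in which 2.16% and 0.195% of all genes were called.

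TUBB2A had 9.89, 9.51 and 8.95 CPM at RBN-2397 10 nM, against 51.2, 63.5 and 12.7 CPM in DMSO. No treated library reached the lowest DMSO library, which was again replicate 3. That library held 8 counts of TUBB2A, so a few reads decide this separation. The log2 fold change was -2.11 ± 0.53 (edgeR, adjusted p = 0.0145). At RBN-2397 300 nM it had 8.19, 16.8 and 9.18 CPM, a log2 fold change of -1.90 ± 0.53 (adjusted p = 0.0165). At RBN012337 3 nM it had 14.5, 13.5 and 10.1 CPM, a log2 fold change of -1.67 ± 0.51 (adjusted p = 0.037). Both of these groups overlapped DMSO through its replicate 3. Because TUBB2A shares 57.9% of its 3′ words with other genes, part of this difference may belong to a copy.

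TUBB4B was called in 1 treatment, RBN-2397 300 nM, with 386, 472 and 441 CPM, against 744, 1073 and 431 CPM in DMSO. DMSO replicate 3 lay among the treated libraries, and the log2 fold change was -0.67 ± 0.23 (edgeR, adjusted p = 0.0449). In the other 5 treatments TUBB4B was between -0.55 and -0.28, with adjusted p of 0.122 or more.

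None of these 8 calls was made without DMSO replicate 1, where their adjusted p ran from 0.0519 to 0.237. Without DMSO replicate 2 TUBB6 at RBN-2397 300 nM was the single one called (-1.03, adjusted p = 0.0234), and the highest adjusted p was 0.238. Without DMSO replicate 3 all 8 were called, with adjusted p of 0.00217 to 0.0136. Without the shallow libraries, which leaves 1 library a group, TUBB2A at RBN-2397 300 nM was the single one called (-2.51, adjusted p = 0.0454), and TUBB6 had adjusted p of 0.341 to 0.537. Without the filter on low counts, TUBB6 at RBN-2397 10 nM (adjusted p = 0.062) and RBN012337 3 nM (adjusted p = 0.0756) and TUBB4B at RBN-2397 300 nM (adjusted p = 0.0858) were not called. Leaving out any 1 of its 3 treated libraries ended the call of TUBB6 at RBN-2397 10 nM and RBN012337 10 nM, of TUBB2A at RBN012337 3 nM and of TUBB4B at RBN-2397 300 nM, while TUBB6 at RBN-2397 300 nM kept it in all 3 cases.

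TUBB and TUBA1A were called in no single treatment of NCI-H1373 at 24 h. TUBB had 741, 623 and 752 CPM at RBN-2397 10 nM, against 310, 288 and 596 CPM in DMSO. All 3 treated libraries were above the DMSO libraries, of which replicate 3 came nearest, and the log2 fold change of 0.82 ± 0.27 missed the threshold (adjusted p = 0.0541). TUBB had 734, 622 and 668 CPM at RBN012337 3 nM, also above every DMSO library (0.78, adjusted p = 0.0615), but 364, 298 and 583 CPM at RBN012337 100 nM, within the DMSO range (0.02, adjusted p = 1). TUBA1A had 23.7, 24.8 and 15.3 CPM at RBN-2397 300 nM, against 81.2, 52.4 and 6.34 CPM in DMSO. DMSO values lay on both sides of the treated ones (-1.10, adjusted p = 0.0599), but the lowest, of replicate 3, was 4 counts. At RBN012337 100 nM TUBA1A had 63.5, 44.0 and 20.3 CPM (-0.20, adjusted p = 1).

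**Figure D3:**
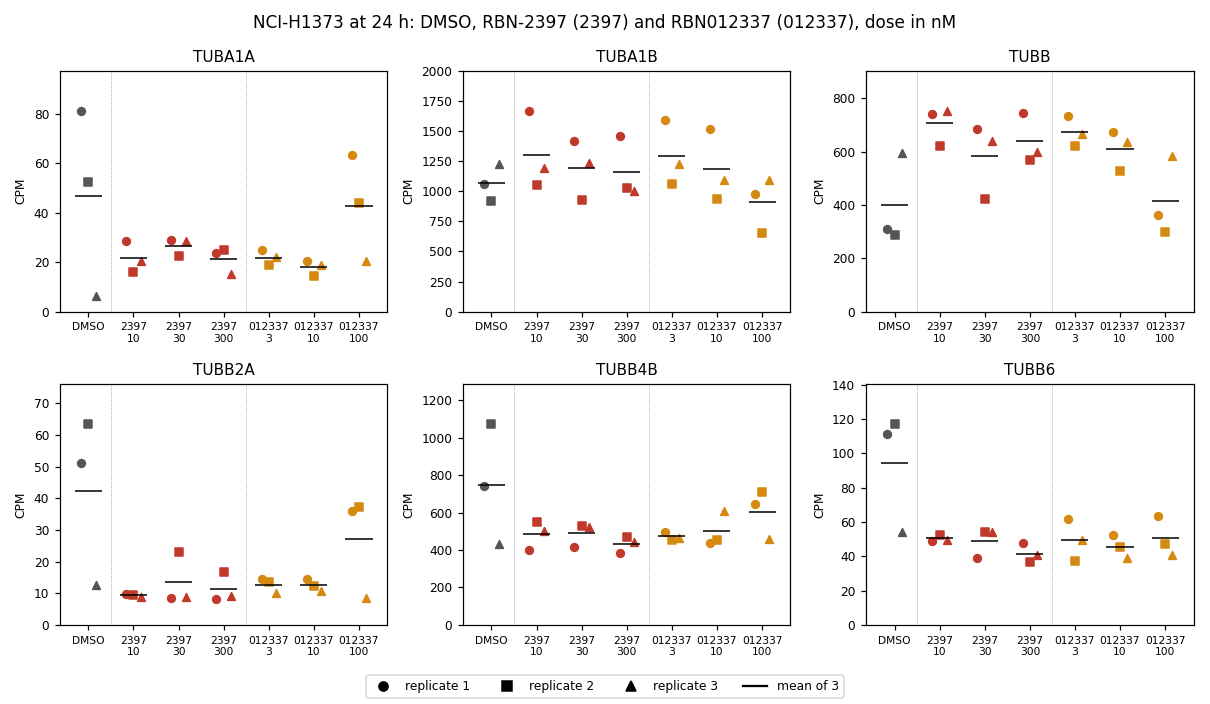
CPM of 6 tubulins in NCI-H1373 at 24 h, by group, with DMSO at the left and doses in nM rising within each compound; symbols are replicates and bars means of 3. DMSO replicate 3 (triangle) lay among the treated libraries or beyond them for TUBA1A, TUBB, TUBB2A, TUBB4B and TUBB6, and replicates 1 and 2 of RBN012337 100 nM lay near replicates 1 and 2 of DMSO for TUBA1A, TUBB, TUBB2A and TUBB4B.

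The mean of the 6 treatments was also set against DMSO, which uses 18 treated libraries and the same 3 DMSO libraries. In NCI-H1373 at 24 h, 4 of 9 tubulins were called lower and none higher, beside 12.1% of all genes called. The median log2 fold change was -0.54 over the 5 beta genes and -0.09 over the 4 alpha genes, and -0.01 over all genes. In the other line and times none of 9 was called, as given below.

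Among alpha genes, TUBA1A fell in NCI-H1373 at 24 h. Its treated libraries ran from 14.4 through a median of 22.2 to 63.5 CPM, against 81.2, 52.4 and 6.34 CPM in DMSO. The DMSO libraries covered the whole treated range, with replicate 3 below and the other replicates above most treated libraries. Replicate 3 held 4 counts of TUBA1A. The log2 fold change was -0.93 ± 0.27 (edgeR, adjusted p = 0.0221). Because TUBA1A shares 38.3% of its 3′ words with other genes, part of this difference too may belong to a copy. Treated libraries of TUBA1B ran from 657 through a median of 1092 to 1667 CPM, against 1061, 919 and 1227 CPM in DMSO, and those of TUBA1C from 376 through 495 to 599 CPM, against 595, 540 and 493 CPM in DMSO. The DMSO libraries of both genes lay inside the treated range. TUBA1B was 0.15 ± 0.20 (95% interval -0.24 to 0.55), TUBA1C -0.12 ± 0.15 (-0.42 to 0.19) and TUBA4A -0.07 ± 0.19 (-0.43 to 0.30), with adjusted p of 0.703 or more. The alpha genes summed were 0.04 ± 0.17 (adjusted p = 0.931), with mean levels of 1841 CPM in treated and 1825 CPM in DMSO libraries.

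Among beta genes, TUBB6 fell by 0.92 ± 0.19 on the log2 scale (edgeR, adjusted p = 0.00156). Its 18 treated libraries ran from 36.4 through a median of 48.5 to 63.5 CPM, against 112, 117 and 53.9 CPM in DMSO, and 14 of the 18 were below every DMSO library. TUBB2A fell by 1.62 ± 0.34 (adjusted p = 0.00254), with 8.19 to 37.1 CPM and a median of 10.4 CPM in treated libraries, against 51.2, 63.5 and 12.7 CPM in DMSO. The highest treated libraries of TUBB2A were replicates 1 and 2 of RBN012337 100 nM, at 35.9 and 37.1 CPM.

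TUBB4B fell by 0.51 ± 0.16 (adjusted p = 0.0357), with 386 to 713 CPM and a median of 469 CPM in treated libraries, against 744, 1073 and 431 CPM in DMSO. TUBB had 298 to 752 CPM with a median of 629 CPM in treated libraries, against 310, 288 and 596 CPM in DMSO. In 12 of the 18 treated libraries TUBB was above every DMSO library, and the log2 fold change of 0.58 ± 0.21 (95% interval 0.16 to 1.005) did not pass the test (adjusted p = 0.0666). TUBB passed it in several alternatives: at 1.19 without the shallow libraries (adjusted p = 0.0337), at 0.70 with RBN012337 100 nM left out of the mean, an alternative chosen after seeing the data (adjusted p = 0.0237), and at 0.61 without the filter on low counts (adjusted p = 0.0488). It also passed without replicate 2 of RBN-2397 30 nM (0.61, adjusted p = 0.0404) or of RBN012337 100 nM (0.62, adjusted p = 0.0427), and missed with DESeq2 (0.57, adjusted p = 0.0584) and DESeq2's size factors (0.56, adjusted p = 0.0794). TUBB3 was -0.54 ± 0.61 (adjusted p = 0.648). Summed, the beta genes were -0.10 ± 0.13 (adjusted p = 0.724), with mean levels of 1210 CPM in treated and 1354 CPM in DMSO libraries.

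The calls of the pooled comparison changed with the libraries used. Without DMSO replicate 1 none of the 9 was called: TUBB6 was -0.79 (adjusted p = 0.0563), TUBB2A -1.48 (adjusted p = 0.0669), TUBB4B -0.53 (adjusted p = 0.155) and TUBA1A -0.27 (adjusted p = 0.766). Without DMSO replicate 2, TUBB6 (-0.86, adjusted p = 0.0186) and TUBB2A (-1.39, adjusted p = 0.0414) stayed called, while TUBA1A was -0.98 (adjusted p = 0.0631) and TUBB4B -0.29 (adjusted p = 0.389). Without DMSO replicate 3, the library that stood apart, 5 were called: TUBB6 at -1.10 (adjusted p = 0.000415), TUBB2A at -1.92 (adjusted p = 0.000504), TUBA1A at -1.31 (adjusted p = 0.000469), TUBB4B at -0.71 (adjusted p = 0.00548) and, higher in treated cells, TUBB at 1.15 (adjusted p = 0.00064). Without the shallow libraries, TUBB6 (-0.97, adjusted p = 0.167) and TUBB4B (-0.56, adjusted p = 0.201) were not called, while TUBB2A (-1.82, adjusted p = 0.0181) and TUBA1A (-1.32, adjusted p = 0.0123) were. TUBB4B also missed the threshold without the filter on low counts (-0.52, adjusted p = 0.0691) and without replicate 3 of RBN012337 100 nM (-0.47, adjusted p = 0.0519).

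**Figure D4:**
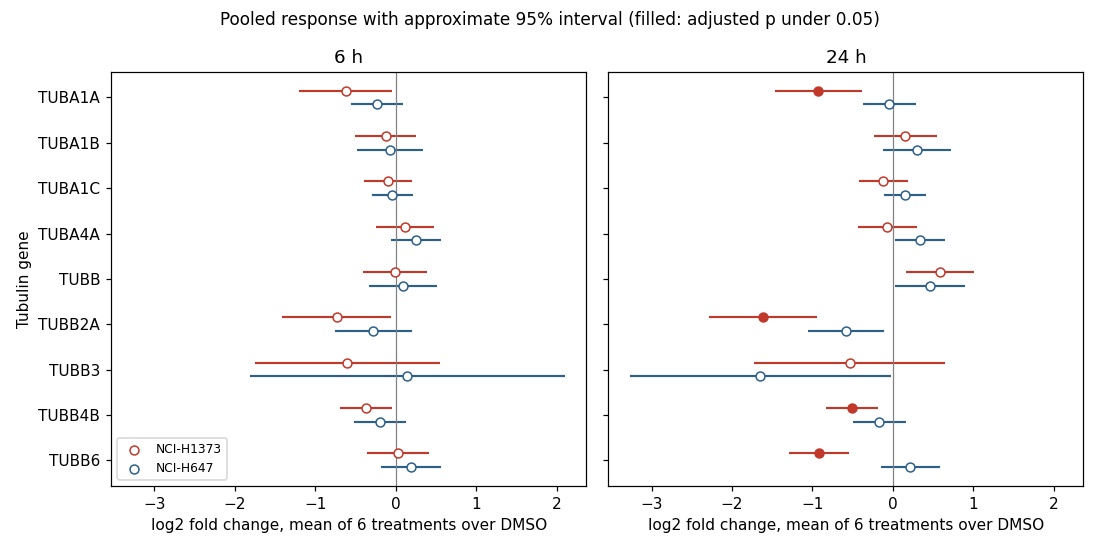
Log2 fold change of the mean of 6 treatments over DMSO for each tubulin, at 6 h (left) and 24 h (right), with approximate 95% intervals; NCI-H1373 in red, NCI-H647 in blue, filled points with an adjusted p under 0.05. The 4 filled points are TUBA1A, TUBB2A, TUBB4B and TUBB6 in NCI-H1373 at 24 h, between -1.62 and -0.51, and the widest intervals are those of TUBB3.

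At 6 h in NCI-H1373, none of 9 was called in the pooled comparison, 3 had an unadjusted p under 0.05, and 1.16% of all genes were called. TUBA1A had 6.32 to 18.3 CPM with a median of 14.3 CPM in treated libraries, against 19.0, 20.6 and 16.2 CPM in DMSO, and 13 of 18 treated libraries were below every DMSO library. Its log2 fold change was -0.62 ± 0.30 (adjusted p = 0.311). TUBB2A was -0.73 ± 0.34 (adjusted p = 0.304) and TUBB4B -0.36 ± 0.17 (adjusted p = 0.282), whereas TUBB6 was 0.03 ± 0.20 (adjusted p = 0.984) and TUBB -0.01 ± 0.20 (adjusted p = 0.999).

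The difference between the 24 h and the 6 h response was tested itself. In NCI-H1373 none of 9 passed, beside 0.53% of all genes, and 2 had an unadjusted p under 0.05. TUBB6 differed by -0.95 ± 0.28 (adjusted p = 0.0933) and TUBB by 0.59 ± 0.29 (adjusted p = 0.355). In NCI-H647 none of 9 passed, none had an unadjusted p under 0.05, and 0% of all genes were called.

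In NCI-H647 none of 9 was called in the pooled comparison at either time. At 6 h no tubulin had an unadjusted p under 0.05, and 0.0135% of all genes were called. TUBA1A had 82.4 to 142 CPM with a median of 97.9 CPM in treated libraries, against 101, 111 and 107 CPM in DMSO, which lay inside that range. TUBA1A was -0.23 ± 0.17 (95% interval -0.56 to 0.10) and TUBB6 0.19 ± 0.19 (-0.18 to 0.56). At 24 h 3 tubulins had an unadjusted p under 0.05, with 4.98% of all genes called.

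At 24 h in NCI-H647, TUBB2A had 20.7 to 45.1 CPM with a median of 28.6 CPM in treated libraries, against 24.3, 64.4 and 43.5 CPM in DMSO, a log2 fold change of -0.58 ± 0.24 (adjusted p = 0.155). TUBB had 308 to 966 CPM with a median of 842 CPM in treated libraries, against 915, 311 and 448 CPM in DMSO, a log2 fold change of 0.46 ± 0.22 (adjusted p = 0.239). The lowest treated library of TUBB was replicate 2 of RBN012337 100 nM, which stood with DMSO replicates 2 and 3 on the leading component. TUBA4A had 124 to 224 CPM in treated libraries, with 17 of 18 above the DMSO values of 150, 130 and 141 CPM, and was 0.34 ± 0.16 (adjusted p = 0.226).

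Leaving out DMSO replicate 1 of NCI-H647 at 24 h gave 3 calls, TUBB at 1.10 (adjusted p = 0.00235), TUBA1B at 0.77 (adjusted p = 0.0349) and TUBB2A at -0.82 (adjusted p = 0.0386). Leaving out DMSO replicate 2 or 3 gave none, and TUBB was then 0.12 (adjusted p = 0.857) and 0.36 (adjusted p = 0.587). TUBB6 had 45.4 to 114 CPM with a median of 93.8 CPM in treated libraries, against 85.8, 104 and 41.4 CPM in DMSO. DMSO replicate 3 was below all treated libraries and the other DMSO libraries lay among them. TUBB6 was 0.22 ± 0.19 (95% interval -0.15 to 0.59), which did not pass the test.

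The difference in pooled response between the lines was tested itself, with 1 of 18 tests over both times called, beside 0.235% of all tests. TUBB6 at 24 h differed by -1.15 ± 0.29 on the log2 scale, NCI-H1373 minus NCI-H647 (edgeR, adjusted p = 0.0427). The call was lost without DMSO replicate 1 (-0.97, adjusted p = 0.31) or 2 (-1.08, adjusted p = 0.187) of NCI-H1373, without DMSO replicate 3 of NCI-H647 (-0.88, adjusted p = 0.275), and without the shallow libraries (-1.22, adjusted p = 0.294). TUBA1A at 24 h differed by -0.92 ± 0.34 (adjusted p = 0.279) and TUBB2A by -1.06 ± 0.46 (adjusted p = 0.433).

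RBN-2397 and RBN012337 share 1 dose, 10 nM, at which they were compared in each line at each time. That is the lowest dose of RBN-2397 and the middle dose of RBN012337. None of 36 tests on tubulins was called, all with an adjusted p of 1 and none with an unadjusted p under 0.05, beside 0% of all tests. In NCI-H1373 at 24 h, TUBB6 averaged 50.5 CPM with RBN-2397 and 45.5 CPM with RBN012337, a log2 difference of 0.08 (95% interval -0.44 to 0.61). TUBB2A averaged 9.45 CPM with RBN-2397 and 12.5 CPM with RBN012337, a log2 difference of -0.47 (-1.56 to 0.61). TUBB averaged 705 CPM with RBN-2397 and 611 CPM with RBN012337, a log2 difference of 0.17 (-0.35 to 0.69). The missed threshold does not show that the compounds act alike, since these intervals are wide. In NCI-H647 at 24 h, TUBA1C averaged 636 CPM with RBN-2397 and 496 CPM with RBN012337, all 3 RBN-2397 libraries being above the others, with a log2 difference of 0.34 (-0.0048 to 0.68).

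The highest and the lowest dose of each compound were compared next. In NCI-H1373 none of 36 tests was called, 6 had an unadjusted p under 0.05, and 0.0312% of all tests were called. Of those 6, 5 belonged to RBN012337 at 24 h, where 100 nM minus 3 nM gave -0.76 ± 0.27 for TUBB (adjusted p = 0.186), with 364, 298 and 583 CPM at 100 nM and 734, 622 and 668 CPM at 3 nM. Replicates 1 and 2 at 100 nM were the low ones, and they stood beside DMSO replicates 1 and 2 on the leading component. TUBA1A was 0.87 ± 0.39 (adjusted p = 0.3) and TUBB2A 0.99 ± 0.51 (adjusted p = 0.381) in that comparison, and TUBB6 was -0.06 ± 0.26 (adjusted p = 0.956). In NCI-H647 none of 36 was called, 1 had an unadjusted p under 0.05, and 0% of all tests were called. There TUBB6 for RBN012337 at 24 h was -0.50 ± 0.24 (adjusted p = 1).

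TUBB3, the beta chain used as a marker of neurons, could not be read from its own row alone. TUBB3 was listed at 0 in 9 of 84 libraries, and in each of those 9 AC092143.1, a gene that overlaps it on the same strand, held 15 to 316 counts. AC092143.1 was at 0 in 70 libraries, and both were above 0 in 5. Of the 31-base words in the last 500 bases of TUBB3, 98.9% also occur in a transcript of AC092143.1. Summed over both rows, the level ran from 20.2 to 314 CPM with a median of 53.7 CPM and was 0 in no library.

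**Figure D5:**
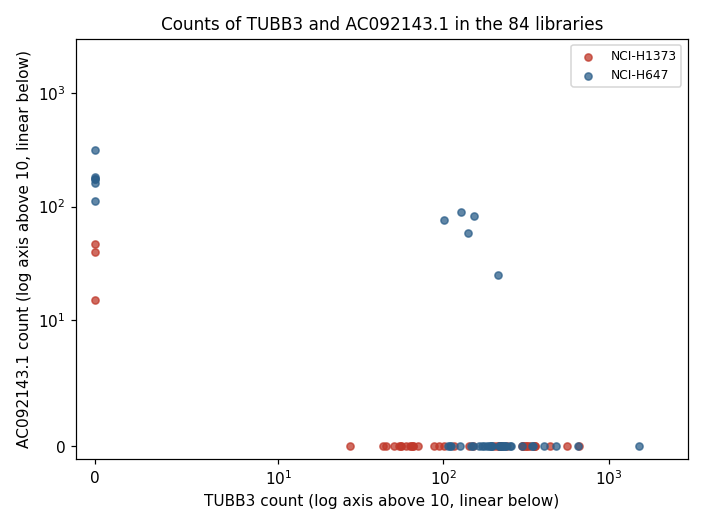
Counts of TUBB3 (x) and AC092143.1 (y) in the 84 libraries, NCI-H1373 in red and NCI-H647 in blue, on axes that are linear below 10 and logarithmic above. Libraries lie on one axis or the other except 5 NCI-H647 libraries, and the 9 libraries at TUBB3 of 0 have 15 to 316 counts of AC092143.1.

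Summed with AC092143.1, TUBB3 was -1.28 ± 0.31 in the pooled 24 h comparison of NCI-H647 (edgeR, adjusted p = 0.0144), a summed fit chosen after seeing the data. The treated libraries ran from 36.4 through a median of 48.5 to 170 CPM, against 58.0, 314 and 58.9 CPM in DMSO. DMSO replicate 2 was far above all other libraries, and the highest treated library was replicate 2 of RBN012337 100 nM. Without DMSO replicate 2 the value was -0.22 (adjusted p = 0.818), and without DMSO replicate 1 or 3 it was -1.60 (adjusted p = 0.00228) and -1.57 (adjusted p = 0.0151).

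Other genes of the microtubule system were taken as lists, chosen with earlier results of these data known. They are described for the pooled 24 h comparison of NCI-H1373. In it, 12.1% of all genes were called and the median over all genes was -0.01. Of 22 genes of microtubule dynamics, 6 fell and none rose, with a median of -0.37. The lowest p belonged to MAP1B, a microtubule-associated protein, at -0.87 ± 0.18 (adjusted p = 0.00156), to CAMSAP1, which binds microtubule minus ends, at -1.19 ± 0.26 (adjusted p = 0.00245), and to KIF18A, a mitotic kinesin, at -0.81 ± 0.21 (adjusted p = 0.0106). MAP1B averaged 245 CPM in treated and 460 CPM in DMSO libraries.

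Of 22 genes of tubulin folding and autoregulation, 2 rose and none fell, with a median of -0.07. They were ARL2, a small GTPase of the tubulin cofactor pathway, at 0.71 ± 0.22 (adjusted p = 0.0291), and CCT3, a chaperonin subunit that folds tubulin, at 0.38 ± 0.13 (adjusted p = 0.0411). TTC5, the autoregulation factor, was -0.43 ± 0.26 (adjusted p = 0.311). Of 13 genes of the other tubulins and the gamma-tubulin complex, 2 rose and 2 fell, with a median of -0.15. MZT2A and MZT2B, near-identical copies of a gamma-tubulin complex protein, were at 0.77 ± 0.21 (adjusted p = 0.0126) and 0.92 ± 0.21 (adjusted p = 0.00375), and TUBE1, epsilon-tubulin, was at -0.99 ± 0.32 (adjusted p = 0.0366) and MZT1 at -0.56 ± 0.18 (adjusted p = 0.0328). None of 13 tested genes of tubulin modification was called.

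At 6 h in NCI-H1373 the single call in these lists was STMN1, the microtubule-destabilising protein stathmin, at -0.56 ± 0.15 (adjusted p = 0.0483), beside 1.16% of all genes called. In NCI-H647 at 24 h, where 4.98% of all genes were called, MZT2A at 0.61 ± 0.19 (adjusted p = 0.0467), MZT2B at 0.69 ± 0.18 (adjusted p = 0.0167) and TUBE1 at -0.80 ± 0.24 (adjusted p = 0.0423) were called, and none of the 22 genes of microtubule dynamics was. CAMSAP1 differed between the lines in its 24 h response by -1.39 ± 0.35 (adjusted p = 0.0428). In NCI-H1373 DMSO, 6 of the 22 folding genes were lower at 24 h than at 6 h and none was higher, beside 9.12% of all genes called, 700 of those genes being lower and 470 higher. Of the folding genes, CCT5 was at -0.71 ± 0.16 (adjusted p = 0.00472) and CCT3 at -0.68 ± 0.16 (adjusted p = 0.00795), while MAP1B was higher, at 1.42 ± 0.26 (adjusted p = 0.000923). These lists share the DMSO libraries with the tubulin results above, and they were not recomputed without single DMSO libraries.

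How the tubulins moved together was described over the 14 group means of each line. The groups share sequencing depth and library method, and the correlations are descriptions. They mix 6 h and 24 h groups, so a shift between times enters each correlation, and correlations within a time were not computed. In NCI-H1373, medians of treated libraries at 6 h and 24 h were 14.3 and 22.2 CPM for TUBA1A. For TUBA1B they were 1422 and 1092 CPM. TUBA1B and TUBB followed each other, with a Pearson r of 0.73 in NCI-H1373 and 0.95 in NCI-H647. TUBA1A and TUBA1B ran opposite ways in NCI-H1373 (r of -0.89) and the same way in NCI-H647 (0.46). Of their 3′ words, 38.3% and 57% occur in other tubulin genes, so reads can have been divided between copies. TUBA1A also had as few as 4 counts in a library of NCI-H1373. TUBB2A and TUBB4B were correlated in NCI-H1373 (0.87) but hardly in NCI-H647 (0.04). Among 12240 genes, those most like TUBA1B over both lines were DNMT1, the maintenance DNA methyltransferase, with a mean r of 0.955, CDCA3 (0.948), CENPM (0.941), DTYMK (0.929) and RRM2, a subunit of ribonucleotide reductase (0.929). Those most like TUBB were HNRNPD (0.975), MCM5, a subunit of the replicative helicase (0.953), WDR34 (0.944), TYMS, thymidylate synthase (0.942), and SDC1 (0.941).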

How the data were processed

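RNA of 84 cultures was measured by 3′ digital gene expression with paired reads. Per the submitters' processing notes, reads were quantified with Salmon against hg38, with counting options not given in the sources used here. The deposited values are estimated counts per gene, of which 49.4% of the nonzero values were not whole, and they were rounded to whole numbers here. Gene symbols came from GENCODE 29, which matched 57845 of 57964 gene identifiers. Each line was fitted alone, with 42 libraries and 14 groups, in edgeR 4.0.16 (R 4.3.3) after TMM scaling and edgeR's filter on low counts, which kept 12832 genes in NCI-H1373 and 14789 in NCI-H647. A fit of all 84 libraries, with 16177 genes, gave the comparisons between lines. All 9 tubulins passed the filter in each fit. Tests were edgeR quasi-likelihood tests, two-sided, with Benjamini-Hochberg adjustment over all genes of a comparison and a threshold of 0.05, and the script was tested on simulated data. Intervals are 95%, from the fold change and its SE, and are approximate. CPM divides a count by its library total. All 9 tubulins are named, other genes of the microtubule system are named by the smallest adjusted p, up to 3 in each direction of a list, and the 5 genes most like TUBA1B and TUBB by correlation. The tubulins and the gene lists were chosen with earlier results of these data known. Libraries come from triplicate experiments, and p-values measure the spread between them. The replicate numbers were not taken to pair libraries in the main tests, although the leading components went in part with the number. Alternatives were DESeq2 1.42.0, its size factors, no filter, a replicate block, leaving out the shallow libraries and leaving out each library. The coding ends of the alpha genes are not reported here.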

Additional observations from a re-analysis of the deposited data

Results flagged for a closer look

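The response of TUBB6 to treatment at 24 h differed between the lines by a test of the difference itself, at -1.15 on the log2 scale, NCI-H1373 minus NCI-H647 (edgeR quasi-likelihood test, adjusted p = 0.0427). TUBB6 averaged 47.8 CPM in treated and 94.2 CPM in DMSO libraries of NCI-H1373, and 90.7 CPM in treated and 76.9 CPM in DMSO libraries of NCI-H647. The difference rests on 3 DMSO libraries in each line. It was not called without DMSO replicate 1 (-0.97, adjusted p = 0.31) or 2 (-1.08, adjusted p = 0.187) of NCI-H1373, without DMSO replicate 3 of NCI-H647 (-0.88, adjusted p = 0.275), or without the shallow NCI-H1373 libraries (-1.22, adjusted p = 0.294).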

How the results depend on the processing

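Of the counts of called tubulins, none of the 18 changed by over 1.5 times with DESeq2's size factors, and no tubulin fold change that had been called changed sign in any alternative. In NCI-H1373 at 24 h the 8 calls over 6 treatments became 13 with DESeq2, 14 without the filter on low counts and 5 without the shallow libraries. Leaving out 1 library gave 0 to 24 calls: 0 without DMSO replicate 1, 1 without DMSO replicate 2 and 24 without DMSO replicate 3. The 4 calls of the pooled 24 h comparison ranged from 0 to 5, and the 2 calls between DMSO times from 0 to 5, with 4 when no filter was used. The 24 h minus 6 h response ranged from 0 to 2, with 2 without DMSO replicate 3 at 24 h, and the dose comparison from 0 to 1, with 1 without RBN012337 100 nM replicate 3 at either time. In NCI-H647 the filter decided several counts: without it there were 5 calls over 6 treatments at 24 h and 1 call each in the pooled 24 h comparison, the DMSO times, the 24 h minus 6 h response and the dose comparison. Leaving out DMSO replicate 1 of NCI-H647 at 24 h gave 6 calls over treatments (range 0 to 6) and 3 in the pooled comparison (range 0 to 3), and summing TUBB3 with AC092143.1, an alternative chosen after seeing the data, gave 1. The difference in response between lines had 2 calls without the filter, 0 without the shallow libraries, and 0 to 2 with 1 library left out, with 2 without DMSO replicate 3 of NCI-H1373 at 24 h. In NCI-H1373 at 24 h, leaving RBN012337 100 nM out of the mean, also chosen after seeing the data, put TUBB at 0.70 (adjusted p = 0.0237). The cause of these changes was not tested. Without the shallow libraries the 24 h groups of NCI-H1373 hold 1 library each, assumed to vary like the other groups.

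Pairing by replicate number was taken to need every correlation of a treatment to be over 0.1, which most treatments did not reach. Correlations of same-numbered deviations were all positive in NCI-H1373, from 0.00948 to 0.427, and ran from -0.0428 to 0.413 in NCI-H647. The cut of 0.1 was a choice. It was met by 2 of 6 treatments at 24 h and 3 of 6 at 6 h in NCI-H1373. In NCI-H647 it was met by 0 of 6 at 24 h and 1 of 6 at 6 h. As hints from the data, every library correlated best with its own number in 7 of 24 treatments. Depth went with the number in NCI-H1373, and replicate 1 had the highest alpha-tubulin sum in 24 of 28 groups. On the first component over other genes, the replicate 3 libraries of NCI-H1373 at 6 h were all positive and the others all negative. At 24 h the replicate 1 libraries of that line were at -15.1 or below on the second component, and no other library was below -0.665. In NCI-H647 the replicate 1 libraries had the same sign on the second component at each time. The main tests did not allow for the number. With the replicate block the calls were 20 over treatments in NCI-H1373 at 24 h, 5 between its DMSO times, 2 in its dose comparison, 1 in its 24 h minus 6 h response and 1 in the pooled 24 h comparison of NCI-H647. In the pooled 24 h comparison of NCI-H1373 there were 5, with TUBB at 0.65 (adjusted p = 0.00394) beside the 4 called without the block.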
